A study of Mus musculus with 22 samples.

Results

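Genes of endothelial identity and of leukocyte adhesion were examined in the mouse hypothalamus after celastrol. The 10 genes were chosen by name, with earlier results of these data known. They were split by role: Vcam1, Icam1, Sele and Selp as adhesion genes that inflammation can induce, and Pecam1, Cldn5, Kdr, Flt1, Tek and Vwf as endothelial genes taken as stable. A probe set was found for 9 of the 10 by the platform's gene symbols, among 18704 genes and 23492 probe sets in all, and dim probe sets were kept. Selp was not analysed here. The mice were lean male C57BL/6J animals, 8 weeks old, kept on normal chow for 2 weeks and injected intraperitoneally. Celastrol is a triterpenoid from the thunder god vine, and the controls received its vehicle, dimethyl sulfoxide (DMSO), at 25 µl per day. There were 4 DMSO arrays at each of 6 h, 1 day and 4 days, and 4, 3 and 3 celastrol arrays at those times. Celastrol is labelled 250 µg per kg at 6 h. For 1 day and 4 days its label gives a volume of 100 µl beside DMSO at 25 µl per day and no dose by body weight, so whether the injected volume matched that of the controls is not clear from the labels. The labels call the arrays biological replicates.

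Endothelial cells line the blood vessels, and in the brain they form the blood-brain barrier through tight junctions and selective transporters. Inflammatory signals, among them NF-kB activity, lead these cells to display selectins, which let leukocytes roll, and immunoglobulin-family molecules, which let them adhere firmly. Resting endothelial cells are recognised by receptors of the vascular endothelial growth factor (VEGF) and angiopoietin families, junction proteins, and the stored clotting protein von Willebrand factor.

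The sequence just upstream of the start is shown for 2 of the inducible genes, because it holds letters like the binding motifs of inflammatory transcription factors, and for a barrier gene in whose window those letters were not found. RefSeq entries on the GRCm38.p6 build were found for 7 of the 10 genes, without Vwf, Vcam1 and Pecam1, and the 250 bases before the start were searched on both strands. The motifs were an NF-kB-like motif (GGANNNTCC), a STAT-like motif (TTCNNNGAA), a TATA box (TATAAA) and a cyclic AMP response element (TGACGTCA), and capitals mark the matches.
Icam1, chr9:21015690-21015939, plus strand: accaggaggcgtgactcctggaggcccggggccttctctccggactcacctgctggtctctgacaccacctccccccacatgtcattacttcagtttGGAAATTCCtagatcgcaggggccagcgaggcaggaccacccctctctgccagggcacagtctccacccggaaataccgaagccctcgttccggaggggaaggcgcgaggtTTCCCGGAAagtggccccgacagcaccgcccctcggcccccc
Sele, chr1:164047984-164048233, plus strand: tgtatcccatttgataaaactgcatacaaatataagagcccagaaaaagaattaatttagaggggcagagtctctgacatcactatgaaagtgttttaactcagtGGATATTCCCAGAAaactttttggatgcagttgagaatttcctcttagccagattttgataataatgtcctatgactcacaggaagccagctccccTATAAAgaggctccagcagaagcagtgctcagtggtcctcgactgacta
Cldn5, chr16:18776597-18776846, plus strand: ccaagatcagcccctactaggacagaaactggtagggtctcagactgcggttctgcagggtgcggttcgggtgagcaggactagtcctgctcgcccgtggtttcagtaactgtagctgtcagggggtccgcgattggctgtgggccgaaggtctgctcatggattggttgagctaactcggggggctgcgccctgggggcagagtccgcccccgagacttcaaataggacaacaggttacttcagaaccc
Icam1 had GGAAATTCC at 153 to 145 bases before the start and TTCCCGGAA at 42 to 34 bases. Sele, whose start in this entry lies inside a longer RefSeq gene span, had GGATATTCC at 145 to 137 bases, TTCCCAGAA at 140 to 132 bases, which overlaps it, and TATAAA at 49 to 44 bases. In Flt1 the TATA box lay 31 to 26 bases and the TGACGTCA element 81 to 74 bases before the start. Tek, Kdr, Selp and Cldn5 had 0 matches in this window. Among 32851 RefSeq promoter entries, 7.27% held the NF-kB-like letters, 7.02% the STAT-like letters, 12.4% the TATA box and 1.55% the cyclic AMP response element. A match is a description of the letters, not a measured binding site.

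Values are the authors' log2 intensities, on which a difference of 1 is a doubling, and levels of different probe sets are not comparable. Array medians lay between 8.58 and 8.66, and each array's mean r with the others of its group was 0.994 to 0.998. Over all genes, limma called 0 genes at 6 h, 1 at 1 day, 3 at 4 days and 7 on the equally weighted average of the 3 times, at a Benjamini-Hochberg adjusted p under 0.05. At an unadjusted p under 0.05 the counts were 750, 1030, 753 and 670. The hypothalamic peptide genes Hcrt and Oxt averaged 12.85 and 12.07, and the summed level of 9 hypothalamic markers lay between 14.57 and 15.01 in every array. Vcam1, Cldn5 and Flt1 lay above the array's median in 22 of 22 arrays, Vwf in 8, Tek in 5 and Pecam1 in 3, and Icam1, Sele and Kdr in 0, which is not a call of absence.

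None of the 9 genes passed the test at any time. The background of called genes was 0.00% at 6 h, 0.00535% at 1 day, 0.0160% at 4 days and 0.0374% on the average. The lowest adjusted p among the 9 was 0.998 at 6 h, 0.873 at 1 day, 0.142 at 4 days and 0.354 on the average. A change in the number of endothelial cells and a change in RNA per endothelial cell cannot be told apart in whole tissue. By unadjusted p, Vwf and Tek ranked highest of the 9 genes at 4 days and Vcam1 on the average. By size, the farthest from DMSO were Vwf at 4 days (0.46), Tek at 4 days (0.24), Icam1 at 1 day (0.23) and Kdr at 1 day (-0.22).

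**Figure D1:**
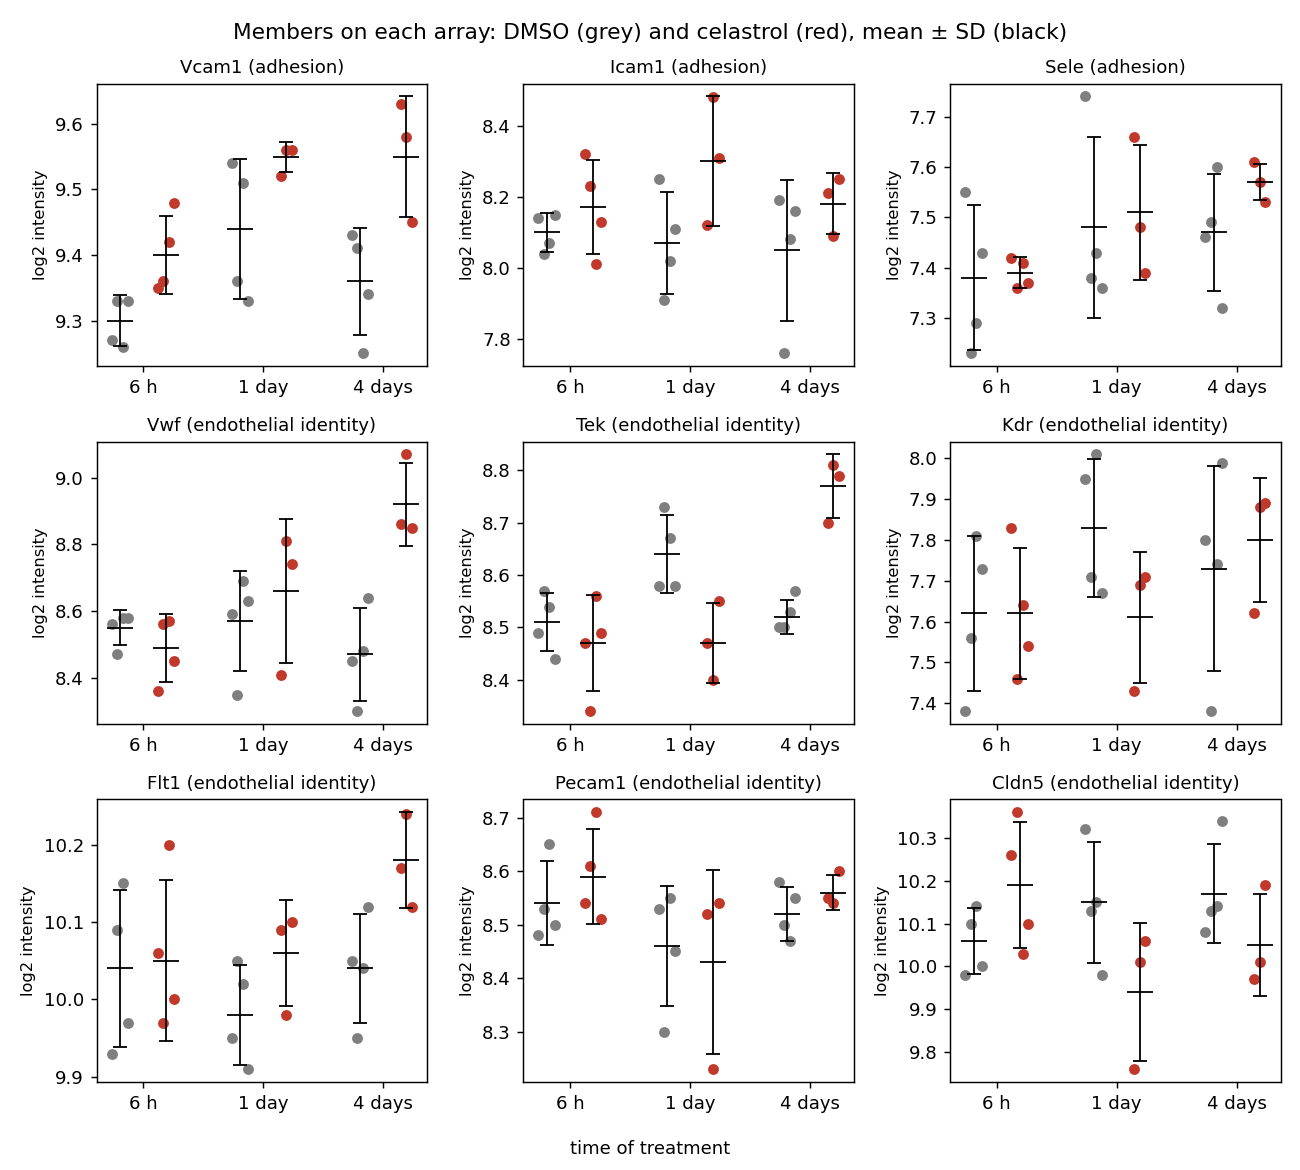
Log2 intensity (vertical axis) of the 9 measured genes, 1 panel per gene, by time and treatment (horizontal axis). Each point is 1 array, DMSO in grey and celastrol in red, and black bars give the mean ± SD. At 4 days the celastrol arrays of Vwf (8.85 to 9.07), Tek (8.70 to 8.81) and Vcam1 (9.45 to 9.63) lie above all DMSO arrays of that time. Such an upward separation held for 4.03% of all genes.

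Vcam1 encodes the endothelial ligand of the leukocyte integrin VLA-4. At 6 h the DMSO arrays read 9.27, 9.33, 9.26 and 9.33, and the celastrol arrays 9.35, 9.36, 9.42 and 9.48. Every celastrol array lay above every DMSO array, as did 1.53% of all genes at this time. At 1 day the DMSO arrays read 9.54, 9.36, 9.51 and 9.33, and the celastrol arrays 9.52, 9.56 and 9.56. The groups overlapped there, since 1 DMSO array (replicate 1) exceeded the lowest celastrol array. At 4 days the DMSO arrays read 9.43, 9.41, 9.25 and 9.34, and the celastrol arrays 9.63, 9.58 and 9.45. The groups were apart again, and 4.03% of all genes stood apart upward at 4 days.

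The log2 difference of Vcam1, celastrol minus DMSO, was 0.10 at 6 h (SE 0.05; 95% interval -0.01 to 0.22), 0.11 at 1 day (SE 0.06; -0.01 to 0.23) and 0.20 at 4 days (SE 0.06; 0.07 to 0.32). None passed (limma, Benjamini-Hochberg adjusted p 0.998, 0.873 and 0.667). The exact permutation p was 0.0286 at 6 h and at 4 days, the smallest it can give with these arrays, and 0.200 at 1 day. Averaged over the times the difference was 0.14 (SE 0.03; 0.07 to 0.21), a 1.10-fold difference, with 10 of 10 celastrol arrays above the DMSO mean of their time. Cd34, Abcc9 and S100a8, from the gene lists below, also had 10 of 10, and the share of all genes was not counted. The average of Vcam1 ranked 26th of 18704 genes by p, and limma's adjusted p was 0.354. The exact permutation p for the average was 0.000327, unadjusted and for 1 gene. With array weights, which let noisier arrays count less, limma's average was 0.16 with an adjusted p of 0.0472, past the threshold. The weights were uneven. The lowest, 0.344, fell on DMSO 1 day replicate 1, which read 9.54 and made the groups overlap at 1 day. The highest, 4.78, fell on celastrol 1 day replicate 3. Over all alternatives limma's adjusted p for the average lay between 0.0472 and 0.735.

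Icam1 encodes the endothelial ligand of the beta-2 integrins of leukocytes, and its promoter carries the NF-kB-like letters shown above. At 1 day the DMSO arrays read 8.25, 7.91, 8.02 and 8.11, and the celastrol arrays 8.12, 8.48 and 8.31. The celastrol arrays exceeded the DMSO mean in 3 of 3 cases, the lowest of them inside the DMSO range. The 6 h arrays read 8.14, 8.04, 8.07 and 8.15 for DMSO and 8.32, 8.23, 8.01 and 8.13 for celastrol. At 4 days they read 8.19, 7.76, 8.08 and 8.16 for DMSO and 8.21, 8.09 and 8.25 for celastrol, so the groups overlapped at every time. The log2 difference of Icam1 was 0.08 at 6 h (SE 0.09), 0.23 at 1 day (SE 0.10; 95% interval 0.02 to 0.44) and 0.13 at 4 days (SE 0.10). Adjusted p from limma was 0.998, 0.873 and 1.00. On average it was 0.15 (SE 0.06; 0.03 to 0.26), with 9 of 10 celastrol arrays above the DMSO mean and a limma adjusted p of 1.00. Leaving out 1 array at a time moved the 1 day value between 0.14 and 0.32.

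Sele encodes E-selectin, which brain vessels show mainly when inflamed, and it was dim here. At 4 days the DMSO arrays read 7.46, 7.49, 7.60 and 7.32, and the celastrol arrays 7.61, 7.57 and 7.53. The celastrol arrays sat at the top of the DMSO range and overlapped it. The 6 h DMSO arrays spanned 7.23 to 7.55 and the celastrol arrays 7.36 to 7.42. At 1 day the spans were 7.36 to 7.74 and 7.39 to 7.66. The log2 differences of Sele were 0.01 (SE 0.08), 0.03 (SE 0.09) and 0.10 (SE 0.09) in time order, and the average was 0.05 (SE 0.05; 95% interval -0.05 to 0.15; limma adjusted p 1.00). The sign at 6 h and at 1 day changed with single arrays left out, so no direction is given for these times.

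Vwf encodes von Willebrand factor, the clotting protein that endothelial cells store and release. At 4 days the DMSO arrays read 8.45, 8.30, 8.48 and 8.64, and the celastrol arrays 8.86, 9.07 and 8.85. The celastrol arrays lay above every DMSO array of that time, as in 4.03% of all genes. At 6 h the DMSO arrays read 8.56, 8.47, 8.58 and 8.58 and the celastrol arrays 8.36, 8.56, 8.57 and 8.45. At 1 day the DMSO arrays read 8.59, 8.35, 8.69 and 8.63 and the celastrol arrays 8.41, 8.81 and 8.74. The groups overlapped at both of these times.

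The log2 difference of Vwf was -0.06 at 6 h (SE 0.09; 95% interval -0.24 to 0.12), 0.09 at 1 day (SE 0.10; -0.11 to 0.29) and 0.46 at 4 days (SE 0.10; 0.26 to 0.65). The 4 day value is a 1.37-fold difference and ranked 14th of 18704 genes by p, and it did not pass (limma adjusted p 0.142; exact permutation p 0.0286, the smallest possible). Over 32 alternative settings it lay between 0.38 and 0.51, with an adjusted p of 0.0554 to 0.731. The difference at 4 days exceeded that at 6 h by 0.52 (SE 0.13; 0.25 to 0.79) and that at 1 day by 0.37 (SE 0.14; 0.08 to 0.65). Neither of these differences between times passed over all genes (limma adjusted p 0.793 and 0.870).

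Tek encodes Tie2, the endothelial receptor of the angiopoietins. At 4 days the DMSO arrays read 8.50, 8.50, 8.53 and 8.57, and the celastrol arrays 8.70, 8.81 and 8.79. Every celastrol array lay above, as in 4.03% of all genes. At 1 day the DMSO arrays read 8.58, 8.73, 8.67 and 8.58, and the celastrol arrays 8.47, 8.40 and 8.55, with every celastrol array below, as in 3.06% of all genes. At 6 h the DMSO arrays read 8.49, 8.57, 8.54 and 8.44, and the celastrol arrays 8.47, 8.34, 8.56 and 8.49, which overlapped. The 4 DMSO arrays of 1 day, at 8.58 to 8.73, all lay above the other 8 DMSO arrays, at 8.44 to 8.57. In no other member did the DMSO arrays of a time stand apart in this way. The share of all genes was not counted, and the separation was not tested. The 1 day celastrol arrays, at 8.40 to 8.55, reached into the range of those 8.

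The log2 difference of Tek was -0.05 at 6 h (SE 0.05; 95% interval -0.15 to 0.06), -0.17 at 1 day (SE 0.06; -0.29 to -0.06) and 0.24 at 4 days (SE 0.06; 0.13 to 0.36). None passed, with limma adjusted p of 0.998, 0.873 and 0.189, and the exact permutation p was 0.0286 at 1 day and at 4 days. The average was 0.01 (SE 0.03; -0.06 to 0.07). Between 1 day and 4 days the difference of Tek moved by 0.41 (SE 0.08; 0.25 to 0.58), the smallest unadjusted p of all 18704 genes for that contrast, 3.44e-05. It did not pass over all genes (limma adjusted p 0.520). The group means enter this contrast with equal weight. They were 8.64 for DMSO and 8.47 for celastrol at 1 day, and 8.52 for DMSO and 8.77 for celastrol at 4 days. The part of each was not tested.

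Levels of other vascular and neighbouring cells at 4 days are given beside Vwf and Tek. At 6 h and at 1 day 4 of 12 mural cell markers, the genes of pericytes and vascular smooth muscle, were higher (medians -0.01 and -0.04). All 12 had a 4 day difference of 0.00 or above (median 0.10, range 0.00 to 0.22), where 56.1% of all genes were higher, and 0 passed. Their summed log2 level was 12.59 to 12.78 in DMSO and 12.70 to 12.78 in celastrol. Abcc9, a potassium channel subunit of pericytes, averaged 0.11 over the times (SE 0.03; limma adjusted p 0.804), and Notch3, a receptor of mural cells, 0.04 (SE 0.04). Of 8 microglial and perivascular macrophage markers 3, 3 and 7 were higher at 6 h, 1 day and 4 days (medians -0.01, -0.03 and 0.11), and 0 passed. At 4 days the summed level was 11.24 to 11.36 in DMSO and 11.37 to 11.39 in celastrol, without overlap. At 1 day it was apart the other way, 11.27 to 11.34 in DMSO and 11.21 to 11.23 in celastrol. Mrc1 and Cd163, scavenger receptors of perivascular macrophages, averaged 0.13 (SE 0.06) and 0.09 (SE 0.04) over the times, both with a limma adjusted p of 1.00. Cbr2, a perivascular macrophage gene picked for its 4 day value, differed by 0.27 then (SE 0.09; limma adjusted p 0.852). Of 9 blood and platelet markers 7 were higher, with summed levels of 10.50 to 10.61 and 10.44 to 10.66. Itga2b, an integrin of platelets, which also hold von Willebrand factor, read 7.85 to 7.95 in DMSO and 7.87 to 8.05 in celastrol, and averaged -0.07 over the times (SE 0.04). S100a8, a neutrophil gene, averaged 0.12 (SE 0.04; limma adjusted p 0.899). The part of these cells in the Vwf and Tek values was not tested.

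Kdr and Flt1 encode the VEGF receptors of endothelium, Kdr the main signalling receptor and Flt1 a receptor that also acts as a decoy. Kdr was dim, and its DMSO arrays spanned 7.38 to 7.81 at 6 h, 7.67 to 8.01 at 1 day and 7.38 to 7.99 at 4 days. Its celastrol arrays spanned 7.46 to 7.83, 7.43 to 7.71 and 7.62 to 7.89, overlapping DMSO at every time. In time order the log2 difference of Kdr was 0.00 (SE 0.12), -0.22 (SE 0.13; 95% interval -0.49 to 0.05; limma adjusted p 0.873) and 0.07 (SE 0.13). These intervals are the widest of the 9 genes.

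Flt1 read 10.05, 9.95, 10.04 and 10.12 in DMSO at 4 days and 10.17, 10.24 and 10.12 in celastrol, which touched at the lowest celastrol array. At 6 h the DMSO arrays spanned 9.93 to 10.15 and the celastrol arrays 9.97 to 10.20. At 1 day they spanned 9.91 to 10.05 and 9.98 to 10.10. Flt1 differed by 0.02, 0.08 and 0.14 in time order (SE 0.06 at 4 days; 95% interval 0.00 to 0.27; limma adjusted p 1.00; exact permutation p 0.0857). The average was 0.08 (SE 0.04), with 7 of 10 celastrol arrays above the DMSO mean.

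Pecam1 encodes CD31, the junctional adhesion molecule used as a marker of endothelial cells. Its DMSO arrays spanned 8.48 to 8.65 at 6 h, 8.30 to 8.55 at 1 day and 8.47 to 8.58 at 4 days. Its celastrol arrays spanned 8.51 to 8.71, 8.23 to 8.54 and 8.54 to 8.60, overlapping DMSO at every time. The log2 difference was 0.05, -0.03 and 0.04 in time order, with an average of 0.02 (SE 0.04; 95% interval -0.06 to 0.10; limma adjusted p 1.00). That interval bounds the average shift of Pecam1 more tightly than that of Vwf, 0.05 to 0.27.

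Cldn5 encodes claudin-5, the main tight junction protein of brain endothelium. Its DMSO arrays spanned 9.98 to 10.14 at 6 h, and the celastrol arrays of that time read 10.26, 10.36, 10.03 and 10.10. At 1 day the DMSO arrays read 10.32, 10.13, 10.15 and 9.98, and the celastrol arrays 9.76, 10.01 and 10.06. At 4 days the DMSO arrays read 10.08, 10.13, 10.14 and 10.34, and the celastrol arrays 9.97, 10.01 and 10.19. At 6 h 3 of 4 celastrol arrays exceeded the DMSO mean, against 0 of 3 at 1 day and 1 of 3 at 4 days, with overlap at every time. Cldn5 differed on the log2 scale by 0.13 (SE 0.08), -0.20 (SE 0.09; 95% interval -0.39 to -0.01) and -0.12 (SE 0.09) in time order, with limma adjusted p of 0.998, 0.873 and 1.00. Its difference at 1 day minus that at 6 h was -0.34 (SE 0.12; -0.60 to -0.08), which did not pass (limma adjusted p 0.750).

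**Figure D2:**
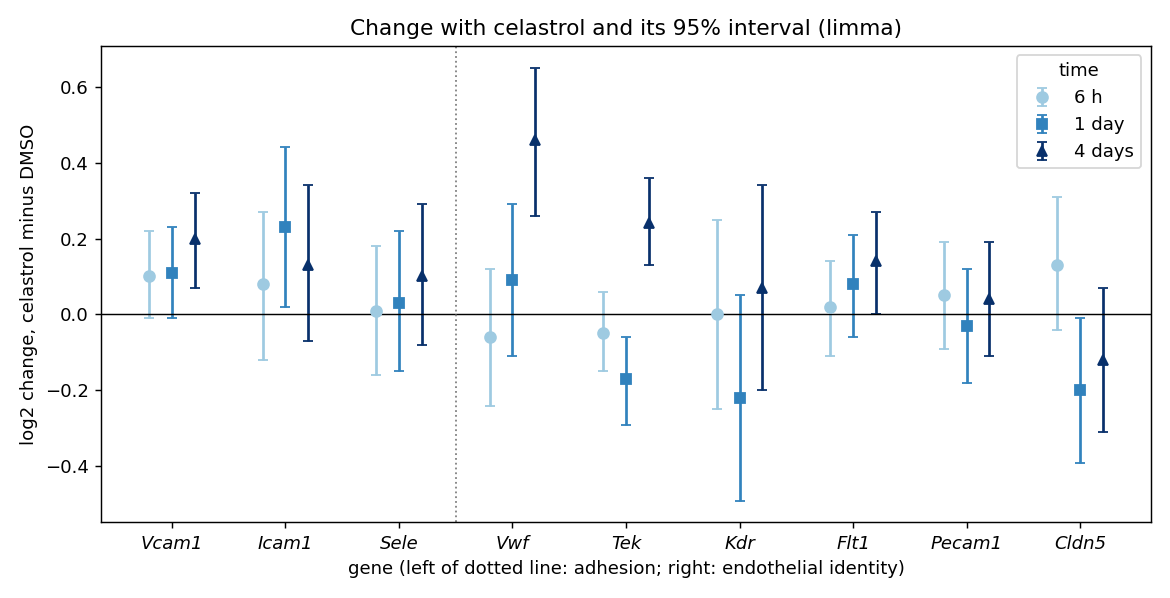
Log2 change, celastrol minus DMSO (vertical axis), of the 9 genes (horizontal axis) at 6 h, 1 day and 4 days. Points are limma estimates and bars their 95% intervals, and Vwf (0.46) and Tek (0.24) at 4 days lie highest, next to Icam1 at 1 day (0.23).

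The 2 roles were set side by side as counts, with no test. Vcam1 and Icam1 were higher with celastrol at 6 h, 1 day and 4 days, and Sele at 4 days, and the medians of the 3 adhesion genes were 0.08, 0.11 and 0.13. The estimate of Sele was 0.01 at 6 h and 0.03 at 1 day, with no settled sign: it changed with array weights or in 2 of 22 fits that left out 1 array at 6 h, and under repeated quantile normalization or in 3 of 22 at 1 day. Of the 6 identity genes 4, 2 and 5 had an estimate above 0, with medians of 0.01, -0.10 and 0.10. Those counts include estimates without a settled sign, Flt1 and Kdr at 6 h, Pecam1 at 1 day and Kdr at 4 days, each of which changed sign with some single array left out, Flt1 at 6 h also under repeated quantile normalization, Kdr at 6 h under median centring and array weights, and Pecam1 at 1 day with array weights. Over all genes 52.0%, 50.6% and 56.1% were higher, and the median was 0.00, 0.00 and 0.01. On the average of the times 3 of 3 adhesion genes and 4 of 6 identity genes had an estimate above 0, against 54.7% of all genes, and that of Tek, 0.01, changed sign with some single array left out. The mean of Vcam1, Icam1 and Sele per array was 8.20 to 8.32 in DMSO and 8.28 to 8.36 in celastrol at 6 h, 8.22 to 8.51 and 8.42 to 8.51 at 1 day, and 8.22 to 8.36 and 8.41 to 8.48 at 4 days. Only the 4 day ranges were apart. The mean of the 6 identity genes was 8.80 to 8.98 and 8.85 to 8.95 at 6 h, 8.87 to 9.02 and 8.78 to 8.95 at 1 day, and 8.79 to 9.03 and 8.98 to 9.09 at 4 days, overlapping each time. The largest single difference was in an identity gene, Vwf at 4 days, not in an adhesion gene.

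Counts at an unadjusted p under 0.05 are given beside those of all genes. The 9 genes were chosen with earlier results of these data known, so their shares are not a test against those of all genes. At 6 h 0 of the 9 genes reached it, where 4.01% of all genes did. At 1 day there were 3 of 9, Icam1 upward and Tek and Cldn5 downward, against 5.51% of all genes (2.41% upward and 3.10% downward). At 4 days there were 4 of 9, Vwf, Tek, Vcam1 and Flt1, all upward, against 4.03% of all genes (2.75% upward). On the average there were 4 of 9, Vwf, Vcam1, Icam1 and Flt1, all upward, against 3.58% (2.35% upward). The comparisons at different times share no arrays.

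Differences between the times were tested as contrasts of the 3 comparisons. None of the 9 genes passed any of them, and neither did any other gene (0.00% of all genes for each contrast). At an unadjusted p under 0.05, Cldn5 reached it for 1 day against 6 h (6.61% of all genes), and Vwf and Tek for 4 days against 6 h (3.73%) and 4 days against 1 day (5.54%). Cldn5 at 4 days differed from 6 h by -0.25 (SE 0.12), and Tek by 0.29 (SE 0.08; limma adjusted p 0.847).

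Further genes of endothelial identity were split in direction. Of 18 genes, 8, 8 and 11 were higher at 6 h, 1 day and 4 days (medians -0.01, 0.00 and 0.06), and 0 passed. Cd34, a sialomucin of vessels, differed by 0.19 at 4 days (SE 0.05; limma adjusted p 0.638) and 0.11 on average, with 10 of 10 celastrol arrays above the DMSO mean. Esam, an endothelial junction molecule, averaged 0.09 (SE 0.04; limma adjusted p 1.00).

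Of 17 blood-brain barrier genes 8, 4 and 9 were higher, with medians of -0.01, -0.07 and 0.01, and 0 passed. Slco1a4, an organic anion transporter of brain capillaries, averaged -0.11 (SE 0.03; limma adjusted p 0.771), with 0 of 10 celastrol arrays above the DMSO mean. Slc2a1, the glucose transporter of the barrier, averaged 0.15 (SE 0.05; limma adjusted p 0.918). At 1 day 13 of these 17 genes had a difference below 0, as had Cldn5, and none of them passed.

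Of 13 VEGF and angiopoietin ligands and their other receptors 7, 8 and 8 were higher, with medians of 0.01, 0.02 and 0.03, and 0 passed. Vegfa, the main ligand of Kdr, differed by -0.06, -0.03 and -0.08. Angpt1, the activating ligand of Tek, differed by 0.05, -0.11 and 0.16, and Angpt2, its context-dependent antagonist, by -0.06, 0.07 and -0.12. The largest limma adjusted p among these 3 ligands was 1.00 and the smallest 0.898. Vegfb averaged -0.05 and Flt4, the lymphatic VEGF receptor, 0.08.

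Other endothelial adhesion and transmigration genes numbered 13, of which 9, 7 and 10 were higher (medians 0.01, 0.01 and 0.05) and 0 passed. Mcam, an adhesion molecule of endothelium and mural cells, differed by -0.17 at 1 day (SE 0.07; limma adjusted p 0.873).

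Leukocyte partners of the adhesion molecules were also measured, and 7, 7 and 9 of 10 were higher (medians 0.04, 0.03 and 0.05). One passed: Itgam, the alpha chain of the Mac-1 integrin that binds ICAM-1 and a marker of microglia and myeloid cells, rose at 4 days. Its DMSO arrays read 7.91 to 8.01 and its celastrol arrays 8.22 to 8.37, a log2 difference of 0.32 (SE 0.05; 1.24-fold; limma adjusted p 0.0463). The differences at 6 h and 1 day were 0.05 and -0.02. The call of Itgam held in 11 of 31 alternatives and was lost in 20, 14 of them with 1 array left out: DMSO 6 h replicates 1, 3 and 4, DMSO 1 day replicates 2 and 3, any DMSO array of 4 days, celastrol 6 h replicates 2 and 3, celastrol 1 day replicate 3, and celastrol 4 days replicates 1 and 2. The other 6 were all probe sets (adjusted p 0.0597), limma-trend (0.0829), repeated quantile normalization (0.104), median centring (0.106), the replicate block (0.119) and only the groups compared (0.263). Its value stayed between 0.27 and 0.34, with an adjusted p of 0.00903 to 0.294. Itgb2, the beta chain of the same integrin, differed by 0.29 at 4 days (SE 0.09; limma adjusted p 0.649), with 3 of 3 celastrol arrays above the DMSO mean. The summed microglial and perivascular macrophage level, given above, stood higher at 4 days and lower at 1 day. Its part in the values of Itgam and Itgb2 was not tested.

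Of 20 genes linked to inflammatory activation of brain endothelium 14, 16 and 12 were higher, with medians of 0.04, 0.07 and 0.05. Ch25h, which makes an oxysterol, rose by 0.84 at 1 day and 0.95 at 4 days, and on average by 0.68 (SE 0.07; limma adjusted p 0.0114, 0.00163 and 3.35e-05). The 1 day call of Ch25h was lost without DMSO 1 day replicate 2 or 3 or celastrol 1 day replicate 2 or 3, with values of 0.82, 0.80, 0.87 and 0.80, and the 4 day call with only the groups compared (adjusted p 0.0842). Ptgs2, the inducible cyclooxygenase of brain vessels and neurons, rose by 0.76 on average (SE 0.10; limma adjusted p 0.00123). Lrg1, a glycoprotein of inflamed brain vessels chosen after its values were seen, read 6.70 to 6.97 in DMSO at 4 days and 7.44 to 7.49 in celastrol, and did not pass (0.57, SE 0.16; limma adjusted p 0.516). The list's largest difference at each time was that of Lcn2, at 1.29, 1.80 and 1.96. Its average was 1.68 (SE 0.35; limma adjusted p 0.130), which did not pass. Ccl2, Il1b and Tnf averaged 0.02, 0.05 and -0.01, and Irf1 was lowest at -0.08. Picked after their values were seen, Nfkbia differed by -0.15, 0.36 and 0.40 in time order, and Bcl3 by 0.07, 0.52 and -0.06. Neither passed, with a smallest limma adjusted p of 0.189 for Nfkbia and 0.192 for Bcl3. The differences of Ch25h and Ptgs2 exceeded those of Vcam1, Icam1 and Sele on the log2 scale, with no test between genes.

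**Figure D3:**
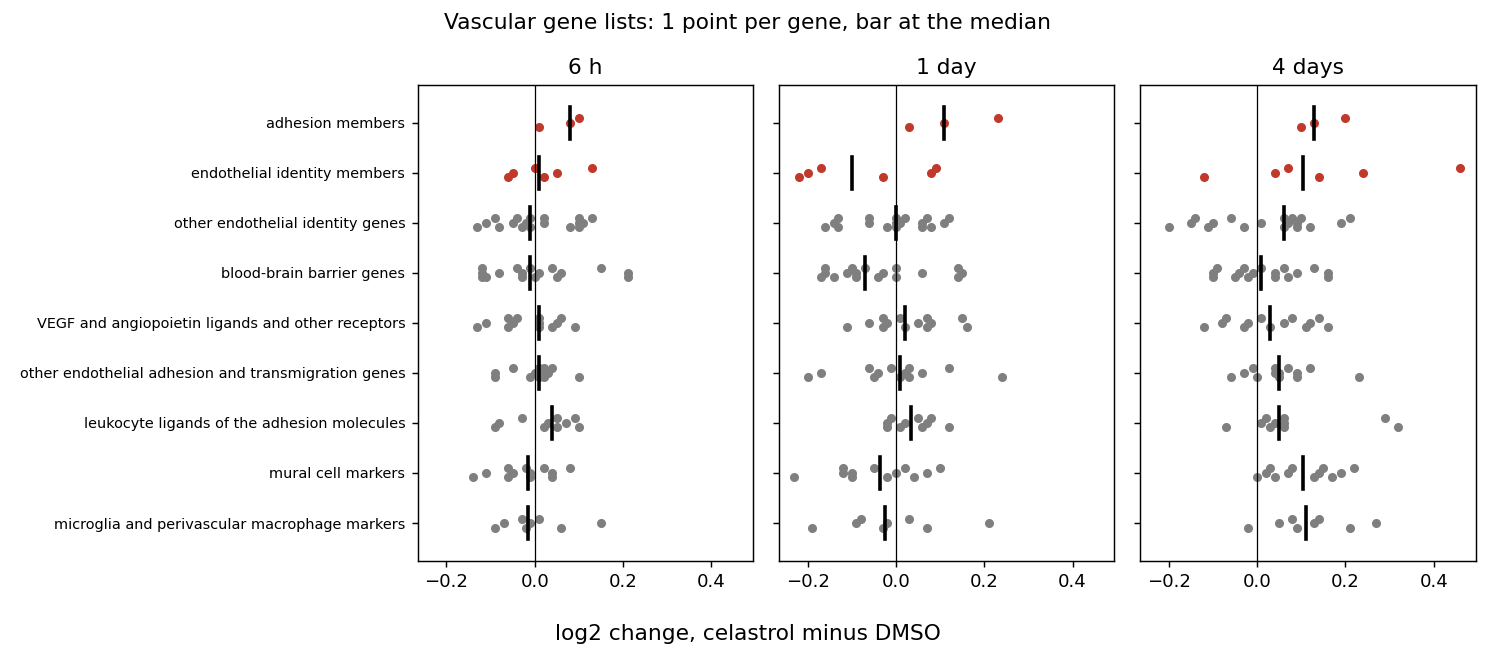
Log2 change, celastrol minus DMSO (horizontal axis), at 6 h, 1 day and 4 days, for the measured adhesion and identity genes (red) and for 7 other lists (grey). Each point is 1 gene and each black bar the list's median, and the adhesion genes lie to the right of 0 at each time (medians 0.08, 0.11 and 0.13), Sele close to it at 6 h and 1 day.

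The remaining marker lists bear on what the dissection held. Of 8 vascular fibroblast and meningeal markers 1, 2 and 5 were higher, of 8 astrocyte markers 7, 5 and 3, of 9 hypothalamic markers 2, 4 and 6, of 5 pituitary markers 1, 2 and 4, and of 6 choroid plexus markers 4, 2 and 3. None of these markers passed. On the average of the times Dcn and Lum, proteoglycans of fibroblasts, differed by -0.14 (SE 0.20) and -0.05 (SE 0.09), and the astrocyte genes Gfap and Aldh1l1 by 0.10 (SE 0.07) and 0.05 (SE 0.04). Oxt and Hcrt differed by -0.14 (SE 0.08) and -0.10 (SE 0.06). The pituitary hormone genes Gh and Tshb differed by -0.59 (SE 0.47) and 0.10 (SE 0.05), and Folr1 and Kl of the choroid plexus by -0.08 (SE 0.05) and 0.07 (SE 0.05), all with a limma adjusted p of 1.00. The pituitary markers varied most, with a summed level of 9.58 to 10.89 in DMSO and 9.78 to 12.66 in celastrol at 4 days, and 9.67 to 13.13 and 9.72 to 11.14 at 6 h. Their part in the values of the endothelial genes was not tested.

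The genes whose values ran most like each member's were found by Pearson's r over the 22 arrays, after each time's mean was subtracted. Symbols of predicted or unnamed genes, small RNAs and olfactory receptors were left out of the search. These r describe arrays that share treatment, time and normalization, and carry no p. For Vwf they were Ctss (0.85), Ifitm1 (0.79) and P2ry1 (0.79). For Tek they were Lgmn, Zfp35 and Wdr78 (0.74, 0.74 and 0.73). Vcam1 ran most with Apold1 (0.79), Agfg1 (0.77) and Galnt15 (0.75). For Icam1 the genes were Vrtn, Cdc20 and Slurp2 (0.80, 0.79 and 0.78), and for Sele Svbp, Ugt2b34 and Slco2b1 (0.77, 0.75 and 0.72). Pecam1 had Prim2, Pdzrn3 and Eola1 (0.82, 0.81 and 0.81), and Cldn5 had P2ry13, Ttc9 and Rwdd3 (0.81, 0.79 and 0.76). Kdr had Pdpn, Cdkn1c and Gzf1 (0.80, 0.79 and 0.79), and Flt1 had Tgfbi, Iqgap1 and Ccdc138 (0.82, 0.82 and 0.81). Among the 9 members themselves the highest r were those of Tek with Flt1 (0.54), Cldn5 with Kdr (0.50), Vwf with Vcam1 (0.49) and Vwf with Icam1 (0.48), and the lowest was that of Tek with Icam1 (-0.27). No member stood among the 3 nearest genes of another.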

How the data were processed

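Per the labels' protocols, hypothalamic RNA was extracted with Trizol, labelled by a whole-transcript kit and hybridised to Affymetrix arrays. The authors deposited log2 intensities made with RMA, per the submitters' processing notes, and neither the RMA version nor the probe set annotation is stated in the sources used here. RMA makes the arrays' distributions alike, so a shift shared by all genes could not be seen. The platform's annotation named 1 gene for 20228 probe sets, several for another 1399 and none for the other 1865. Where a gene had several probe sets (809 genes), the brightest on average stood for it, and no filter on level was used.

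Group means (6) were estimated from all 22 arrays together by limma 3.58.1 (R 4.3.3), with 16 residual degrees of freedom, 4.74 prior ones and a median residual SD of 0.0966. Tests were two-sided, with Benjamini-Hochberg adjustment over 18704 genes at 0.05, and intervals are at 95%. Exact permutation tests, two-sided, exchanged labels within a time. They can give no p below 0.0286 at 1 time, and 1.17e-05 for the average. P-values measure the spread between arrays, whose number limits the precision. The steps were tested on simulated data.

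The members and lists were chosen with earlier results of these data known. Named were all members and the 3 genes most like each, after the exclusions given above. From each list those that passed were named, or otherwise the 2 with the smallest p on the average. Other genes named were chosen after their values were seen. A list's summed level is the log2 of its summed linear intensities. Alternatives were a level filter, all probe sets, probe set means, leaving out each array, a replicate block, only the groups compared, array weights, robust eBayes, limma-trend, quantile normalization and median centring. Plots used matplotlib 3.10.9 (Python 3.11.15).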

Additional observations from a re-analysis of the deposited data

How the results depend on the processing

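The 45 log2 differences of the 9 genes were recomputed under 32 alternatives, 22 of them leaving out 1 array. Of 1410 values, 1384 kept their direction and their side of the threshold, 25 changed sign and 1 passed the threshold, Vcam1 on the average with array weights (0.16, limma adjusted p 0.0472). Sign changes fell on values near 0. Quantile normalization again gave -0.01 for Flt1 at 6 h and 0.00 for Sele at 1 day, and median centring gave -0.01 for Kdr at 6 h. Array weights gave -0.03 for Sele and -0.02 for Kdr at 6 h, 0.07 for Pecam1 at 1 day and -0.07 for Cldn5 at 4 days against 1 day. Leaving out 1 array gave -0.04 to 0.07 for Sele, -0.08 to 0.06 for Kdr and -0.03 to 0.06 for Flt1 at 6 h, -0.04 to 0.12 for Sele and -0.08 to 0.07 for Pecam1 at 1 day, -0.04 to 0.16 for Kdr at 4 days, 0.00 to 0.02 for Tek on the average, and -0.01 to 0.14 for Cldn5 at 4 days against 1 day.

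Counts of called genes over the whole array (0, 1, 3 and 7) moved more. At 1 day and 4 days they were 0 and 5 with a level filter (9880 genes), 3 and 1 with quantile normalization again, 2 and 10 with limma-trend, 15 and 14 with array weights, and 3 and 1 with the replicate block; at 4 days 0 were called with only the groups compared, and on the average 16 with array weights. Leaving out 1 array gave 0 to 2 at 1 day, 1 to 7 at 4 days and 4 to 11 on the average. The causes were not tested. Replicate numbers were not used as pairs in the main model. Of 10 same-numbered pairs 1 had a correlation of deviations over 0.1 (-0.43 to 0.39), that of replicate 3 at 6 h. Deviations from a small group's own mean balance around 0, so these correlations cannot decide whether the numbers mark pairs. With the replicate block Vwf at 4 days was 0.48 (limma adjusted p 0.150), Tek 0.24 (0.339) and the average of Vcam1 0.14 (0.699), and no call among the 9 genes changed, while Itgam at 4 days lost its call (0.32, 0.119). Icam1, Sele and Kdr have no value under the level filter, since they did not pass it, and the average has none with only the groups compared. Array weights were estimated gene by gene because the default estimate did not converge. The number of arrays, 3 or 4 a group, limits the precision.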
